A study of Homo sapiens with 24 samples.

Results

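The genes described here are 39 regulators of pre-mRNA splicing, found by their symbols in a table of 22446 genes measured in A2780 cells, a human ovarian cancer line. They are 10 SR proteins, 2 TRA2 proteins, 4 CLK kinases, 2 SRPK kinases, 2 SRRM coactivators, 12 hnRNPs, 2 PTB proteins, 3 factors of the 3' splice site (SF3B1, U2AF1 and U2AF2) and 2 cold-inducible RNA-binding proteins (CIRBP and RBM3). All 39 had a row, and all 39 were among the 11933 genes tested, which reached 1 RPKM (reads scaled by transcript length and by the reads of the library) in at least 2 of 12 libraries. The cells were kept in hypoxia (1% oxygen) or in normoxia, and total RNA was sequenced at 6 hr, 48 hr and 6 days. The groups, of 2 libraries each, are hypoxia at 6 hr (libraries 3 and 4), normoxia at 6 hr (1 and 2), hypoxia at 48 hr (7 and 8), normoxia at 48 hr (5 and 6), hypoxia at 6 days (11 and 12) and normoxia at 6 days (9 and 10). All groups share the line, 5% CO2, 37 °C and RPMI medium with 10 to 15% fetal bovine serum. Whether the paired libraries stem from separate cultures is not stated in the labels, and p-values here reflect only library-to-library spread, which may be technical.

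SR proteins bind exonic enhancers through RNA recognition motifs and recruit the splicing machinery through tails rich in arginine and serine. SRPK kinases phosphorylate those tails in the cytoplasm, which lets SR proteins enter the nucleus, and CLK kinases phosphorylate them further in the nucleus, which releases them from nuclear speckles. Many hnRNPs bind silencers and counter SR proteins at nearby sites, so that the balance of both kinds of protein sets which exons are kept. Several SR, TRA2 and hnRNP genes limit their own level through poison exons that send the transcript to nonsense-mediated decay, and a share of CLK1 and CLK4 transcripts keeps introns in the nucleus. RPKM per gene does not separate these forms from the coding ones.

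Depth, inferred from the steps in the deposited precursor miRNA values, was 25100000 to 51720000 reads a library. Libraries of a pair had Pearson r of 0.9892 to 0.9951 across genes. Libraries 1 and 2 (normoxia at 6 hr) stood furthest apart, with a median absolute log2 difference of 0.21 over the 39 genes, against 0.063 to 0.096 in the other pairs. Of 5 genes known to rise in low oxygen (PDK1, BNIP3, SLC2A1, CA9 and VEGFA), 4 were called higher in hypoxia at 6 hr and all 5 at 48 hr and at 6 days. Of 9 epithelial markers, EPCAM (33.2 to 42.2 RPKM) and KRT18 (23.7 to 38.2) were present in every library. KRT19, CDH1, PAX8, MUC16, CLDN3 and CLDN4 stayed below 0.1 RPKM. Of 9 mesenchymal or fibroblast markers, VIM was at 712 to 989 RPKM, DCN at 10.98 to 22.3, LUM at 6.01 to 16.8 and COL3A1 at 2.45 to 4.22. The others were low, with a highest library of 3.06 RPKM for COL1A2, 2.50 for COL1A1, 1.96 for FN1, 1.81 for CDH2 and 0.153 for PDGFRB. Summed over 9 mesenchymal or fibroblast markers, most of it VIM, the level at 6 days was 962 to 1034 RPKM in hypoxia, against 776 to 798 in normoxia, and the 9 epithelial markers summed to 65.9 to 66.9 RPKM in hypoxia, against 61.4 to 64.2 in normoxia; the part of either in the results below was not tested. None of 4 endothelial and none of 5 leukocyte markers reached a group mean of 1 RPKM.

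Promoters are shown for the 4 CLK kinases and for 3 other members with clear changes, with the core sequence that hypoxia-inducible factors bind. The core was searched as ACGTG or GCGTG on both strands (CACGT and CACGC on the other strand), so that a CACGTG counts as 2 overlapping matches. In windows of 300 bases (250 before and 50 after the start, RefSeq, GRCh38.p14), 36 of the 39 genes had an entry, with 55 windows, and SRSF2, HNRNPA1 and TRA2A did not. A match was present in 45 of the 55 windows (81.82%), in 48.45% of all 35116 promoter windows and in 62.28% of the 11775 windows of genes tested. The windows of the 39 genes were also richer in CpG, with a median of 30.25 per gene against 26.0 for genes tested and 14.0 for all promoters. Counted per gene, 33 of the 36 (91.67%) had a match in at least 1 window, beside 72.11% of the 8034 genes tested that had an entry. By call at 6 days in hypoxia, a match was present in 4 of 4 genes called higher, 10 of 13 called lower and 19 of 19 not called. These differences were not tested. A match describes letters in a window and shows no binding. The 250 bases before the start are printed 5′ to 3′ on the gene's strand, with matches in capitals, for CLK1 (chr2:200864659-200864908, minus strand), CLK2 (chr1:155273505-155273754, minus), CLK3 (chr15:74615586-74615835, plus), CLK4 (chr5:178627051-178627300, minus), SRSF3 (chr6:36594112-36594361, plus), SRSF7 (chr2:38751495-38751744, minus) and CIRBP (chr19:1269082-1269331, plus). Where a gene had several windows, the one with most matches is shown, and of equals the one furthest upstream.
CLK1: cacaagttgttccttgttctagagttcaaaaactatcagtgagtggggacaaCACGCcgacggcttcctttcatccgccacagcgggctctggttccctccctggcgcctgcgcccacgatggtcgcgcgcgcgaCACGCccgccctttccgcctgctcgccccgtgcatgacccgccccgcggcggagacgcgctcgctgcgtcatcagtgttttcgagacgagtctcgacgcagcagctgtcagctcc
CLK2: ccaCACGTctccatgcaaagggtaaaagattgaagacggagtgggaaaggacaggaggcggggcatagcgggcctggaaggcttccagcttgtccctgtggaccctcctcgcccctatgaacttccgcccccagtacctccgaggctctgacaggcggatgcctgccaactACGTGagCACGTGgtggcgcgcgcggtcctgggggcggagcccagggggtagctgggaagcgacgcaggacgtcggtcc
CLK3: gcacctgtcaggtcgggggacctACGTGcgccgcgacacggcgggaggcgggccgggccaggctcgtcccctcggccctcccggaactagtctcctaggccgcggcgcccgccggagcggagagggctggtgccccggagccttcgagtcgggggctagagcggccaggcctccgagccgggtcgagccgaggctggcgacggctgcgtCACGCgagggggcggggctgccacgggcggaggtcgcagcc
CLK4: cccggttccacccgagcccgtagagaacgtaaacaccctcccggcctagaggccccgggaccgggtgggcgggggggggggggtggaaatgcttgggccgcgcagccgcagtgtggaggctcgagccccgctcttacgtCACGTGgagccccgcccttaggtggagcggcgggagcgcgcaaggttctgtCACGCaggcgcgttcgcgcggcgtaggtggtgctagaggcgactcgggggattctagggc
SRSF3: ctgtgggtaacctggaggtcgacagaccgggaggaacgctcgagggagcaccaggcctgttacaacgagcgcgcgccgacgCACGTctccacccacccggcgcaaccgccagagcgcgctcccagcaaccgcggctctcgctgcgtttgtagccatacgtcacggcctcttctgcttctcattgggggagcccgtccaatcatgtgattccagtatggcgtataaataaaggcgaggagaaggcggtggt
SRSF7: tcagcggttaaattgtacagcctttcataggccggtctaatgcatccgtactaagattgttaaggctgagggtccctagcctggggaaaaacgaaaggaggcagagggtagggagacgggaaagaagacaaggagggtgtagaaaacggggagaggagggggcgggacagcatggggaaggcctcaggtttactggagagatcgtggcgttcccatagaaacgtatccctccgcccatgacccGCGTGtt
CIRBP: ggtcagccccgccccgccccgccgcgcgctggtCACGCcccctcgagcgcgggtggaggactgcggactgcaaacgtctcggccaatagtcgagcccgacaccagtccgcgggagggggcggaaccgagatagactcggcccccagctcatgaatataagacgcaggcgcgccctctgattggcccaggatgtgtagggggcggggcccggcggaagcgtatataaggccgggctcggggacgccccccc
The CLK2 stretch holds 4 matches and the CLK4 stretch 3, CLK1 and CLK3 hold 2 each, and SRSF3, SRSF7 and CIRBP hold 1 each.

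RPKM is scaled by transcript length, so levels can be set side by side between genes, but only roughly. The transcript models behind the lengths are not given, and near copies of some genes may share their reads. HNRNPA1, which packages nascent transcripts and represses exons, had the highest mean over the 12 libraries at 122 RPKM (104 to 149.9), followed by HNRNPA2B1 at 111 (57.1 to 157) and HNRNPL at 105 (80.5 to 131). The lowest means were those of CLK4 at 3.42 RPKM (2.38 to 5.49), PTBP2 at 4.21 (3.98 to 4.69) and CLK3 at 6.31 (3.20 to 11.1). PTBP2, the neuronal relative of PTBP1, was also the steadiest of the 39, with a highest over lowest library of 1.18. SRSF2 was the most variable, with a ratio of 5.16.

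**Figure D1:**
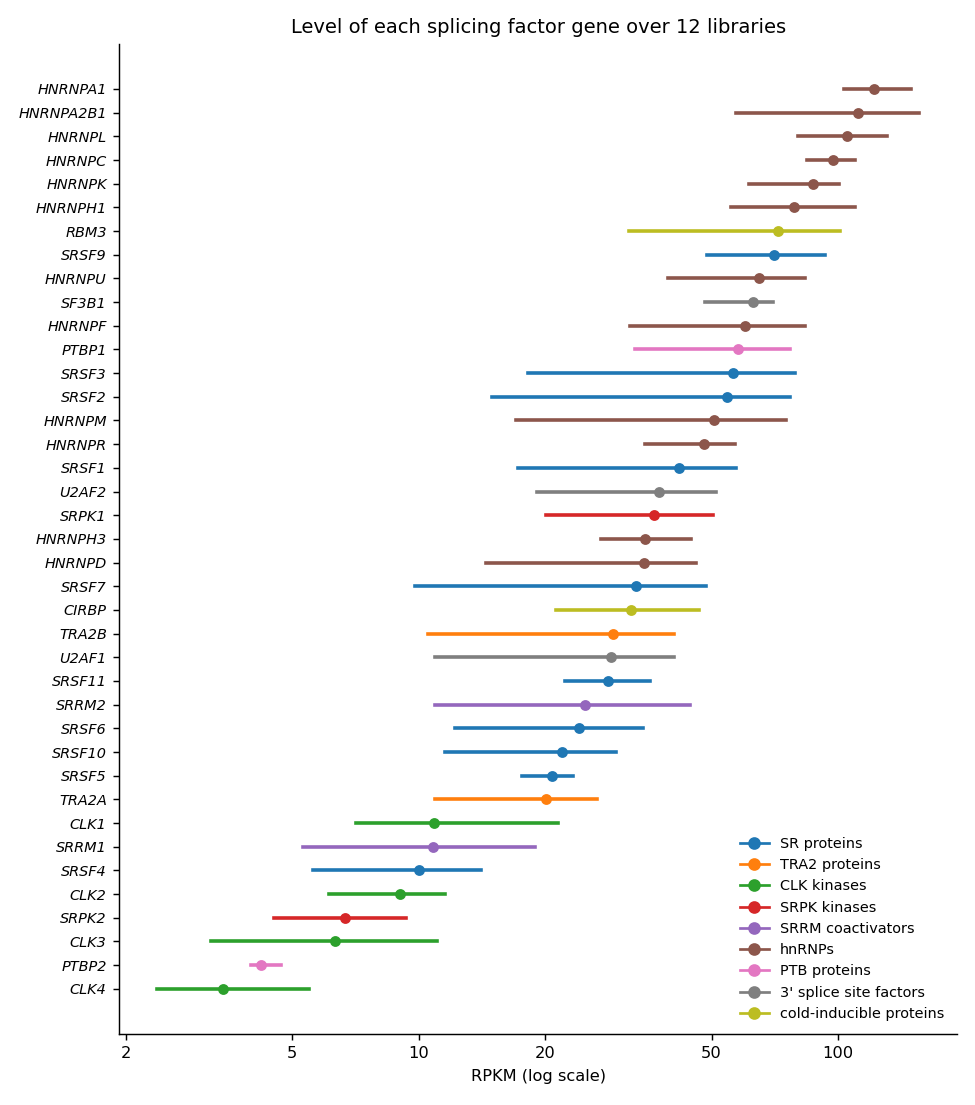
Mean RPKM of each of the 39 genes over 12 libraries (points, log axis) with the lowest and highest library (bars), coloured by role. The hnRNPs take the top 6 places, with HNRNPA1 at 122 RPKM, and the CLK kinases lie in the bottom 8, with CLK4 lowest at 3.42 RPKM.

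In hypoxia the 4 CLK kinases were higher than in normoxia, first CLK2 and CLK3 and by 6 days CLK1, CLK3 and CLK4. At 6 days most of the core SR proteins, both TRA2 proteins and both cold-inducible proteins were lower in hypoxia than in normoxia. For CIRBP, the normoxia mean rose from 24.9 RPKM at 48 hr to 46.5 at 6 days, while hypoxia stood at 37.1 and 37.8. Calls are adjusted p below 0.05 in limma with Benjamini-Hochberg adjustment over the 11933 genes, and fold changes are on the log2(RPKM + 0.5) scale. At 6 hr, 2 of the 39 were called higher and 0 lower, beside 3.39% higher and 0.201% lower of all genes tested. At an unadjusted p below 0.05 in limma, 4 were higher and 0 lower. The share of all genes at that unadjusted level was not counted, here or below. At 48 hr, 3 were called higher and 0 lower, beside 9.24% and 2.89% of all genes, and 4 were higher and 3 lower at an unadjusted p below 0.05. At 6 days, 4 of 39 (10.3%) were called higher and 15 (38.5%) lower, beside 23.9% and 18.3% of all genes tested. The median log2 fold change of the 39 was 0.02 at 6 hr, -0.10 at 48 hr and -0.13 at 6 days, against 0.04, 0.01 and 0.04 over all genes. Over the mean of the 3 times, 4 were called higher and 11 lower, beside 22.1% and 13.9% of all genes. At 6 days and over the mean, lower calls made up a larger share of the 39 than of all genes and higher calls a smaller one, a difference that was not tested. At 6 hr and 48 hr none of the 39 was called lower on the deposited values. In bulk RNA, less RNA per cell and fewer cells that express a gene cannot be told apart.

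The split of calls over all genes moved with the scaling of the libraries. Of all calls, the share that was higher at 6 hr was 94.4% on the deposited values, 76.1% after quantile normalization and 76.0% after centring on a trimmed mean, and at 48 hr it was 76.2%, 57.9% and 55.8%. At 6 days it was 56.6%, 45.3% and 47.9%, and over the mean of the 3 times 61.5%, 41.6% and 43.7%. At 48 hr the 39 genes gave 3 higher and 1 lower call after quantile normalization, and 3 higher and 3 lower after centring on a trimmed mean. At 6 days the counts were 4 higher and 19 lower after quantile normalization, and 4 higher and 17 lower after centring on a trimmed mean. Calls over all 11933 genes grew as well. At 48 hr they numbered 1448 on the deposited values, 1620 after quantile normalization and 1961 after centring on a trimmed mean. At 6 days they numbered 5039, 5984 and 5419. Whether the 39 differed from all genes in this was not tested.

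**Figure D2:**
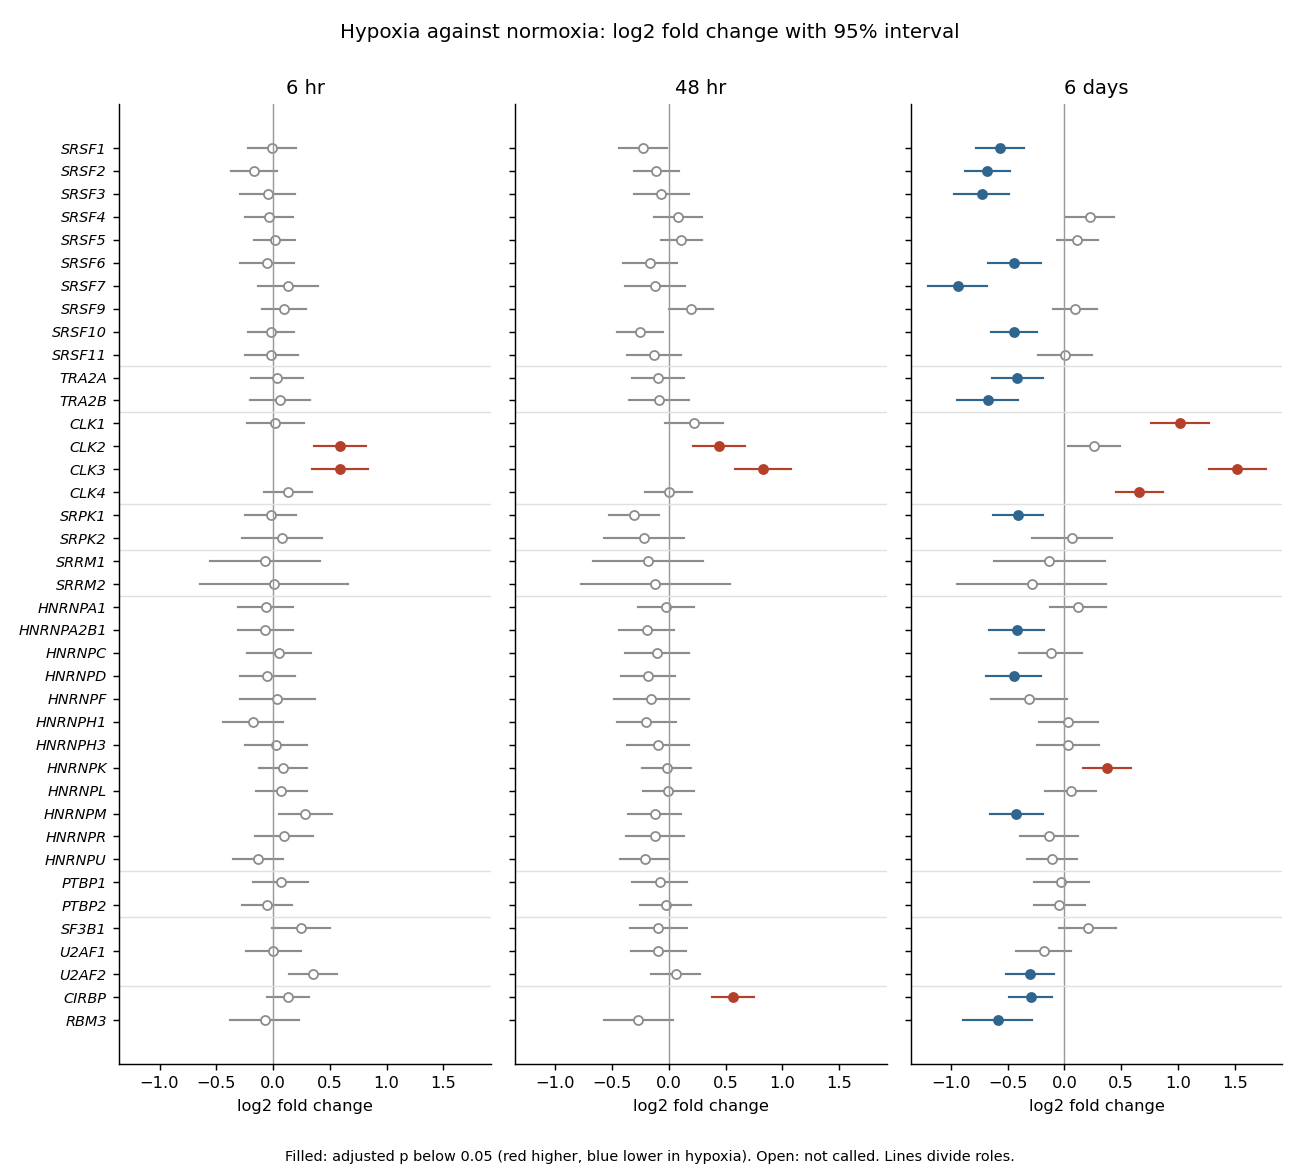
Log2 fold change of hypoxia over normoxia for the 39 genes at 6 hr, 48 hr and 6 days (points) with 95% intervals (lines), grouped by role. Filled points passed the adjusted p threshold, 2 at 6 hr, 3 at 48 hr and 19 at 6 days. At 6 days the CLK kinases lie to the right, and the 6 SR and 2 TRA2 proteins called lower lie to the left. The 4 SR proteins not called there lie between 0.01 (SRSF11) and 0.22 (SRSF4).

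CLK3 was the one member called higher at all 3 times. It had 6.83 and 5.47 RPKM in hypoxia at 6 hr, against 3.66 and 4.13 in normoxia. At 48 hr it had 9.42 and 8.71 RPKM in hypoxia, against 4.77 and 5.00 in normoxia, and at 6 days 10.0 and 11.1 RPKM in hypoxia, against 3.20 and 3.47 in normoxia. The 6 hypoxia libraries lay above the 6 normoxia libraries without overlap. The log2 fold change was 0.59 ± 0.11 (SE) at 6 hr (adjusted p = 0.0127), 0.83 ± 0.11 at 48 hr (adjusted p = 0.000587) and 1.52 ± 0.11 at 6 days (adjusted p = 2.44e-06), the last a 2.88-fold rise. The call at 6 hr was lost without library 3 (adjusted p = 0.134, from a range of 0.00883 to 0.134 over 20 alternatives).

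CLK1 is the best studied of the family and phosphorylates SRSF1 among others. At 6 hr it had 7.94 and 8.54 RPKM in hypoxia, against 9.24 and 7.10 in normoxia, and the groups overlapped. The 48 hr values, 9.28 and 9.41 RPKM in hypoxia against 8.52 and 7.38 in normoxia, gave a difference that was not called (adjusted p = 0.246). By 6 days it had 21.1 and 21.5 RPKM in hypoxia, against 10.0 and 10.5 in normoxia, a 2.03-fold rise (log2 fold change 1.02 ± 0.12, adjusted p = 6.02e-05). Only the 6 days hypoxia pair stood above 11 RPKM among the 12 libraries.

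CLK4, the closest relative of CLK1, was low at every time. It had 2.98 and 2.72 RPKM in hypoxia at 6 hr, against 2.73 and 2.38 in normoxia, and 3.17 and 3.23 RPKM in hypoxia at 48 hr, against 3.34 and 3.07 in normoxia. The groups overlapped at both times. At 6 days it had 5.49 and 5.42 RPKM in hypoxia, against 3.41 and 3.13 in normoxia, a 1.58-fold rise (log2 fold change 0.66 ± 0.09, adjusted p = 0.000305).

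CLK2 was called at the 2 early times on the deposited values. It had 10.5 and 9.17 RPKM in hypoxia at 6 hr, against 6.62 and 6.13 in normoxia, a 1.504-fold rise (log2 fold change 0.59 ± 0.10, adjusted p = 0.00863). At 48 hr it had 11.6 and 10.6 RPKM in hypoxia, against 7.44 and 8.64 in normoxia, a 1.36-fold rise (0.44 ± 0.10, adjusted p = 0.0177). The groups did not overlap at any time, but at 6 days, with 10.4 and 10.2 RPKM in hypoxia against 8.10 and 8.97 in normoxia, the difference was not called (log2 fold change 0.26, 95% interval 0.03 to 0.49, adjusted p = 0.0668). It was called higher at 6 days after quantile normalization (0.24, adjusted p = 0.0374) and with only the groups compared in the fit (adjusted p = 0.0424). Normoxia itself was higher at 6 days than at 6 hr, by 0.39 ± 0.10 (adjusted p = 0.00727). The call at 6 hr was lost without library 3 (adjusted p = 0.101, range over alternatives 0.00535 to 0.101), and that at 48 hr without library 5, 7 or 8 (adjusted p = 0.146, 0.155 and 0.0529, range 0.0104 to 0.155).

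Summed over the family, CLK kinases came to 28.3 and 25.9 RPKM in hypoxia at 6 hr, against 22.2 and 19.7 in normoxia. The sums were 33.4 and 32.0 RPKM in hypoxia at 48 hr, against 24.1 and 24.1 in normoxia, and 46.9 and 48.2 RPKM in hypoxia at 6 days, against 24.7 and 26.0 in normoxia. All 4 kinases were called higher over the mean of the 3 times, beside 22.1% of all genes tested. The log2 fold changes were 0.98 for CLK3, 0.43 for CLK2, 0.42 for CLK1 and 0.26 for CLK4. CLK1 and CLK4 were called at neither early time. Their log2 fold changes were 0.02 and 0.13 at 6 hr, and 0.22 and -0.0014 at 48 hr. A row for CLK2P, which resembles CLK2, stayed at 0.192 to 0.474 RPKM. The annotation places CLK3-AS1 over CLK3; the sources used here do not say whether strand was used in counting, so reads of such partners cannot be told apart.

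**Figure D3:**
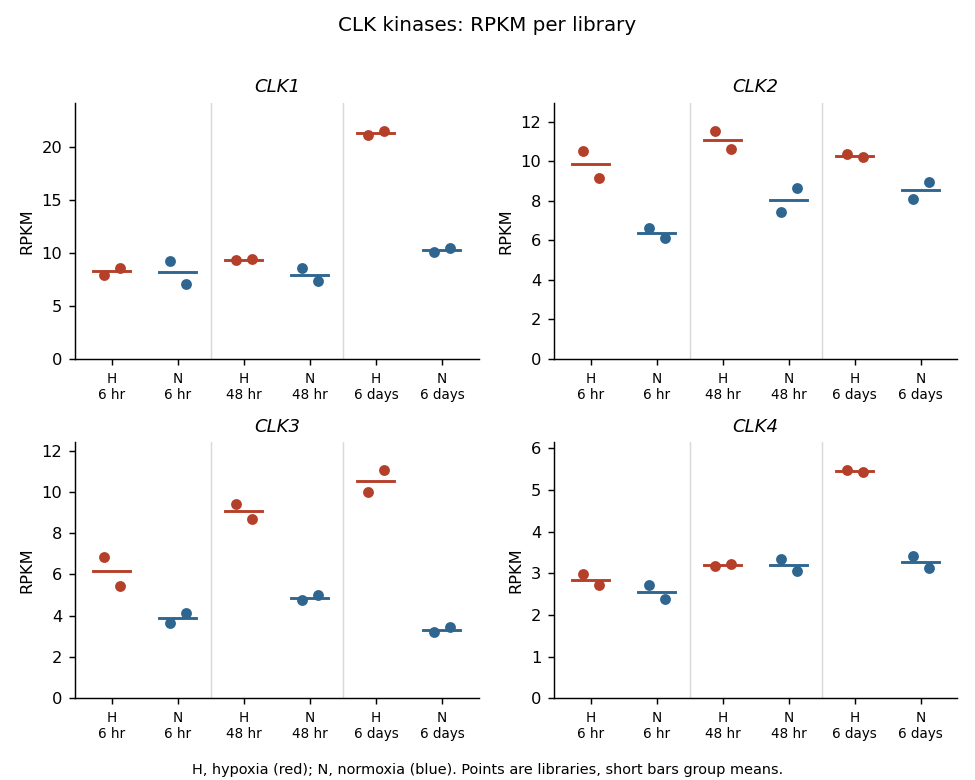
RPKM of CLK1, CLK2, CLK3 and CLK4 in each of the 12 libraries (points) with group means (bars), hypoxia in red beside normoxia in blue at each time. CLK3 is higher in hypoxia at all times, CLK2 is separated most at 6 hr, and CLK1 and CLK4 are separated at 6 days, with CLK1 at 21.1 and 21.5 against 10.0 and 10.5 RPKM.

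Of the 10 SR proteins, 6 were called lower in hypoxia at 6 days (SRSF1, SRSF2, SRSF3, SRSF6, SRSF7 and SRSF10) and 0 higher in limma. Of all genes tested, 18.3% were lower and 23.9% higher. The median log2 fold change of all 10 was -0.44. At 6 hr and 48 hr none of the 10 was called in either direction on the deposited values, with medians of -0.02 and -0.12; at an unadjusted p below 0.05 none passed at 6 hr, and SRSF1 and SRSF10 passed downward and SRSF9 upward at 48 hr. After centring on a trimmed mean, SRSF1 (-0.28, adjusted p = 0.0427) and SRSF10 (-0.31, adjusted p = 0.0292) were called lower at 48 hr. SRSF10 was also called there with only the groups compared in the fit (adjusted p = 0.0471) and without library 1 or 2 (adjusted p = 0.0422 and 0.042). At 6 days SRSF4 passed upward at the unadjusted level. The same 6 of 10 were lower at 6 days under both other scalings. Summed over the 10, SR protein transcripts came to 406 and 417 RPKM in hypoxia at 6 hr, against 441 and 392 in normoxia, to 453 and 443 RPKM in hypoxia at 48 hr, against 465 and 468 in normoxia, and to 193 and 187 RPKM in hypoxia at 6 days, against 237 and 231 in normoxia.

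SRSF7, which like SRSF3 helps to hand mature mRNA to the export receptor, fell furthest. It had 38.8 and 40.3 RPKM in hypoxia at 6 hr, against 42.0 and 30.9 in normoxia, where the groups overlapped. The values were 44.9 and 43.6 RPKM in hypoxia at 48 hr, against 47.9 and 48.6 in normoxia, and neither early difference was called, though without library 1 that at 6 hr was called higher (0.35, adjusted p = 0.0318). At 6 days it had 10.1 and 9.81 RPKM in hypoxia, against 19.6 and 19.5 in normoxia, a 1.92-fold fall (log2 fold change -0.94 ± 0.12, adjusted p = 0.000133).

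SRSF3, the smallest SR protein, had 66.0 and 67.8 RPKM in hypoxia at 6 hr, against 75.9 and 62.9 in normoxia, and 72.8 and 71.8 RPKM in hypoxia at 48 hr, against 78.9 and 72.6 in normoxia. At both early times the groups overlapped, and neither difference was called. By 6 days the pairs were apart, with 21.1 and 18.2 RPKM in hypoxia, against 33.1 and 32.4 in normoxia (log2 fold change -0.73 ± 0.11, adjusted p = 0.000428).

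SRSF2, a speckle protein that is recurrently mutated in myeloid neoplasms, had 62.8 and 71.0 RPKM in hypoxia at 6 hr, against 77.1 and 72.8 in normoxia, and 70.4 and 68.1 RPKM in hypoxia at 48 hr, against 72.7 and 76.7 in normoxia. By 6 days the values were 15.6 and 14.9 RPKM in hypoxia, against 25.1 and 24.2 in normoxia (log2 fold change -0.68 ± 0.09, adjusted p = 0.000206). The hypoxia libraries lay below normoxia at each time, but only the 6 days difference was called. In the annotation SRSF2 overlaps MFSD11, whose own row stood at 1.53 to 3.10 RPKM.

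SRSF1, the founding member of the family and an oncogene when overexpressed, had 49.6 and 53.4 RPKM in hypoxia at 6 hr, against 56.2 and 47.7 in normoxia, and 48.0 and 47.2 RPKM in hypoxia at 48 hr, against 54.6 and 57.1 in normoxia. The 48 hr pairs were apart, yet the difference was not called (adjusted p = 0.159). A fall was called at 6 days, with 18.2 and 17.2 RPKM in hypoxia, against 26.2 and 26.8 in normoxia (log2 fold change -0.57 ± 0.10, adjusted p = 0.000884). SRSF6 (-0.44, adjusted p = 0.00745) and SRSF10 (-0.44, adjusted p = 0.00279), a splicing repressor when dephosphorylated, were the other two called lower at 6 days; SRSF6 lost its call without library 12 (-0.38, adjusted p = 0.062). SRSF6 had 13.3 and 12.2 RPKM in hypoxia, against 17.3 and 17.6 in normoxia, and SRSF10 had 11.6 and 11.6 RPKM in hypoxia, against 16.5 and 15.4 in normoxia.

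The remaining 4 SR proteins were not called at 6 days. Their log2 fold changes there were 0.22 for SRSF4 (95% interval 0.01 to 0.43), 0.11 for SRSF5 (-0.07 to 0.29), 0.09 for SRSF9 (-0.10 to 0.28) and 0.01 for SRSF11 (-0.23 to 0.24). All 4 intervals lie above the estimate of SRSF6, the smallest fall among the 6, though these differences between genes were not tested. SRSF9 was the most abundant SR protein transcript at 6 days, with 52.2 and 54.2 RPKM in hypoxia against 51.2 and 48.7 in normoxia.

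TRA2A and TRA2B are SR-like proteins that bind GAA-rich exonic enhancers. Both were called lower in hypoxia at 6 days, beside 18.3% of all genes tested. TRA2B had 34.1 and 34.9 RPKM in hypoxia at 6 hr, against 37.9 and 28.7 in normoxia, and 38.9 and 36.3 RPKM in hypoxia at 48 hr, against 39.2 and 40.6 in normoxia. Neither of these differences was called. At 6 days TRA2B had 11.7 and 10.5 RPKM in hypoxia, against 18.6 and 17.5 in normoxia (log2 fold change -0.67 ± 0.12, adjusted p = 0.00121). TRA2A had 11.3 and 10.9 RPKM in hypoxia at 6 days, against 14.8 and 15.2 in normoxia (-0.41 ± 0.10, adjusted p = 0.00818), and was not called without library 10 or 12 (adjusted p = 0.053 and 0.0532).

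**Figure D4:**
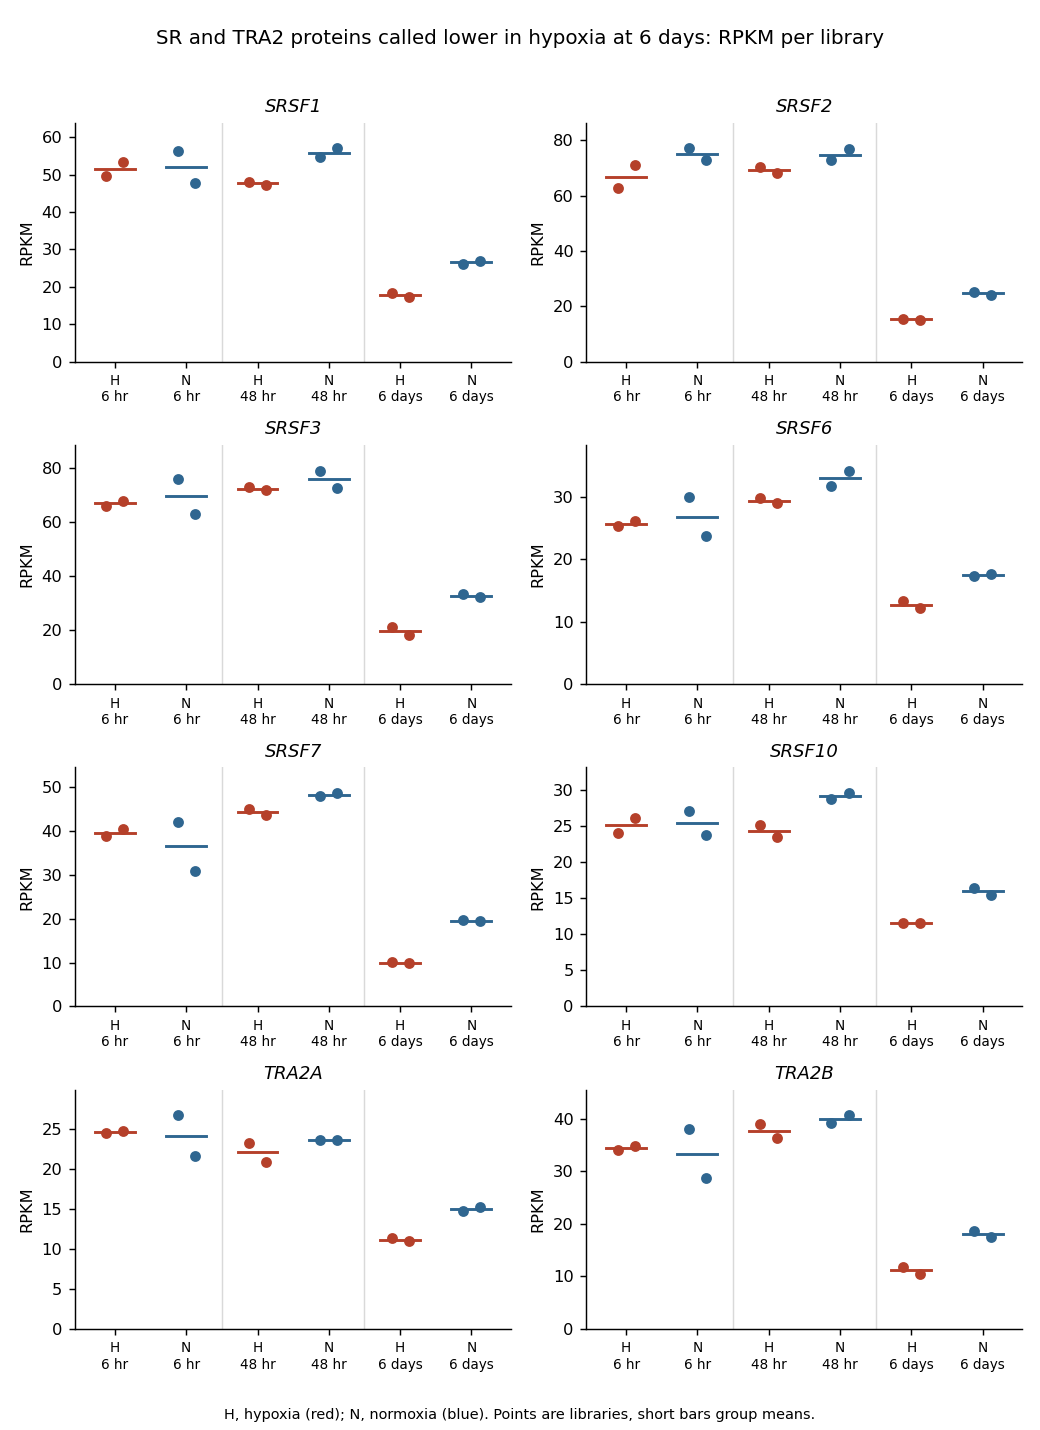
RPKM of the 6 SR and 2 TRA2 genes called lower in hypoxia at 6 days, per library (points) with group means (bars), hypoxia in red beside normoxia in blue. Both 6 days pairs lie far below the earlier pairs, and hypoxia lies below normoxia in all 8 panels there, as for SRSF7 at 10.1 and 9.81 against 19.6 and 19.5 RPKM.

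SRPK1, the main cytoplasmic SR protein kinase, fell in hypoxia at 6 days to 21.0 and 20.1 RPKM, against 27.6 and 27.2 in normoxia (log2 fold change -0.41 ± 0.10, adjusted p = 0.00798), and was not called without library 12 (-0.38, adjusted p = 0.0575). At 48 hr its log2 fold change was -0.31 and not called (adjusted p = 0.0738), but it was called lower after quantile normalization (adjusted p = 0.0368), after trimmed-mean centring (adjusted p = 0.0183) and without library 1 or 2 (adjusted p = 0.0309 and 0.0308). SRPK2 lay between 4.51 and 9.33 RPKM over the 12 libraries and was not called in hypoxia at any time. SRRM1 and SRRM2, large scaffold proteins of the spliceosome, were not called either, and they had the widest spread within pairs. In hypoxia at 6 days SRRM2 had 10.97 and 19.7 RPKM, against 17.4 and 18.9 in normoxia, and in normoxia at 6 hr the pair itself stood at 22.0 and 44.4.

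Of the 12 hnRNPs, 3 were called lower and 1 higher in hypoxia at 6 days, beside 18.3% lower and 23.9% higher of all genes. The other 8 were not called there, and none of the 12 was called at 6 hr or 48 hr. At those early times HNRNPM at 6 hr (0.28) alone had an unadjusted p below 0.05 in limma. The median log2 fold change of the 12 was -0.12 at 6 days. The count depended on the scaling, with 6 lower and 0 higher after quantile normalization and 4 lower and 1 higher after centring on a trimmed mean. HNRNPA2B1, a reader of N6-methyladenosine and sorter of RNA cargo, had 137 and 137 RPKM in hypoxia at 6 hr, against 131 and 157 in normoxia, and 119 and 118 RPKM in hypoxia at 48 hr, against 142 and 129 in normoxia. At 6 days HNRNPA2B1 had 57.1 and 57.6 RPKM in hypoxia, against 79.8 and 74.1 in normoxia (-0.42 ± 0.11, adjusted p = 0.0103). HNRNPD (AUF1), which binds AU-rich elements in unstable mRNAs, had 14.5 and 17.2 RPKM in hypoxia at 6 days, against 22.7 and 20.7 in normoxia (-0.45 ± 0.11, adjusted p = 0.00719). HNRNPM had 17.4 and 17.1 RPKM in hypoxia, against 24.7 and 22.0 in normoxia (-0.42 ± 0.11, adjusted p = 0.00858). Without library 9, none of these 3 falls was called (-0.37, -0.38 and -0.34, adjusted p = 0.0799, 0.0632 and 0.0807), and single libraries 11 and 12 ended the call of HNRNPA2B1, 11 that of HNRNPD and 12 that of HNRNPM.

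HNRNPK, a poly(C)-binding protein, was the hnRNP called higher in hypoxia than in normoxia. Its mean went from 97.8 RPKM at 6 hr to 82.8 at 6 days in hypoxia, and from 91.8 to 63.8 in normoxia. The normoxia fall was called in limma (log2 fold change -0.52, adjusted p = 0.000836). In hypoxia at 6 days HNRNPK had 81.7 and 83.9 RPKM, against 61.3 and 66.3 in normoxia (log2 fold change 0.37 ± 0.10, adjusted p = 0.00994). The call was lost after quantile normalization (0.23, adjusted p = 0.0672) and without library 9 or 12 (0.32 and 0.35; range of adjusted p over alternatives 0.00583 to 0.0852).

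HNRNPA1 was called in none of the comparisons. It had 106 and 104 RPKM in hypoxia at 6 hr, against 108 and 111 in normoxia, 132 and 119.6 in hypoxia at 48 hr, against 121 and 134 in normoxia, and 128 and 149.9 in hypoxia at 6 days, against 129.8 and 125 in normoxia. At 6 days the 95% interval of the log2 fold change was -0.13 to 0.36. Rows of near-identical copies, HNRNPA1L2 (18.0 to 23.3 RPKM) and HNRNPA1P10 (5.28 to 20.6 RPKM), may share reads with it, which makes its level uncertain. HNRNPL, whose binding to CA-rich RNA includes the VEGFA transcript, had 117 and 109 RPKM in hypoxia at 6 hr, against 111 and 105 in normoxia, and 122 and 121 in hypoxia at 48 hr, against 114 and 131 in normoxia. HNRNPL had, at 6 days, 85.6 and 84.7 RPKM in hypoxia, against 80.5 and 83.3 in normoxia, and no difference was called. Its 95% interval at 6 days was -0.17 to 0.28. The other hnRNPs that were not called at 6 days (HNRNPC, HNRNPF, HNRNPH1, HNRNPH3, HNRNPR and HNRNPU) had log2 fold changes between -0.31 and 0.03. HNRNPF was called lower after quantile normalization (-0.39, adjusted p = 0.00977), after trimmed-mean centring (-0.37, adjusted p = 0.034), with only the groups compared and without library 1 or 2, and HNRNPC and HNRNPR after quantile normalization (adjusted p = 0.0373 and 0.0413). HNRNPH1 has a near copy in HNRNPH2, at 9.68 to 16.9 RPKM.

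PTBP1 and PTBP2, polypyrimidine tract repressors, were not called in hypoxia at any time. PTBP2 had 4.22 and 4.09 RPKM in hypoxia at 6 hr, against 4.66 and 4.04 in normoxia, 4.18 and 3.98 in hypoxia at 48 hr, against 4.34 and 4.004 in normoxia, and 4.14 and 4.23 in hypoxia at 6 days, against 4.69 and 3.99 in normoxia. Its 12 values span less than those of any other member. PTBP1 had log2 fold changes between -0.08 and 0.07 at the 3 times.

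At the 3' splice site, SF3B1 holds the branch point, U2AF2 binds the polypyrimidine tract and U2AF1 reads the terminal AG. SF3B1 had 66.6 and 62.8 RPKM in hypoxia at 6 hr, against 61.5 and 48.3 in normoxia, and 65.2 and 66.3 RPKM in hypoxia at 48 hr, against 70.1 and 70.0 in normoxia. SF3B1 had, at 6 days, 68.3 and 62.0 RPKM in hypoxia, against 56.0 and 56.9 in normoxia, which was not called (0.20, 95% interval -0.05 to 0.46). Hypoxia lay above normoxia at 6 hr and at 6 days without passing the test, except that the 6 hr difference was called without library 1 (0.42, adjusted p = 0.031). U2AF1 had 38.7 and 31.0 RPKM in hypoxia at 6 hr, against 36.5 and 32.8 in normoxia, 38.6 and 37.7 in hypoxia at 48 hr, against 40.6 and 40.8 in normoxia, and 10.97 and 11.5 in hypoxia at 6 days, against 12.2 and 13.4 in normoxia (-0.18, 95% interval -0.43 to 0.06). That 6 days difference was called lower under both other scalings (quantile and trimmed mean, -0.24 in each, adjusted p = 0.0403 and 0.0461). U2AF2 fell at 6 days to 20.3 and 19.2 RPKM in hypoxia, against 23.5 and 25.4 in normoxia (-0.30 ± 0.10, adjusted p = 0.0265), a call lost without any 1 of libraries 9 to 12 (adjusted p up to 0.163, range over alternatives 0.00182 to 0.163).

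CIRBP and RBM3 are glycine-rich RNA-binding proteins induced by mild cold and, in other cell lines, by low oxygen. CIRBP had 24.0 and 24.2 RPKM in hypoxia at 6 hr, against 22.8 and 21.2 in normoxia, which was not called (adjusted p = 0.49). At 48 hr it rose to 38.7 and 35.6 RPKM in hypoxia, against 25.7 and 24.1 in normoxia (log2 fold change 0.57 ± 0.09, adjusted p = 0.00123). At 6 days it had 38.7 and 36.8 RPKM in hypoxia, against 46.1 and 46.8 in normoxia, and was called lower (-0.30 ± 0.09, adjusted p = 0.0168). Mean levels at 48 hr were 37.1 ± 2.1 RPKM in hypoxia and 24.9 ± 1.1 in normoxia, and at 6 days 37.8 ± 1.3 in hypoxia and 46.5 ± 0.46 in normoxia (SD, n = 2 each). The turn between 48 hr and 6 days, -0.86 ± 0.12 (adjusted p = 0.00299), was the largest of the 39 and the one such change called under all 20 alternatives. The call at 6 days was lost without any 1 of libraries 9 to 12 (adjusted p up to 0.109, range over alternatives 0.00166 to 0.109).

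RBM3 had 84.9 and 80.9 RPKM in hypoxia at 6 hr, against 101 and 75.3 in normoxia, and 82.4 and 74.9 RPKM in hypoxia at 48 hr, against 93.8 and 95.6 in normoxia. Neither of these differences passed the test. At 6 days it had 38.0 and 31.8 RPKM in hypoxia, against 51.3 and 53.5 in normoxia, a 1.501-fold fall (log2 fold change -0.59 ± 0.14, adjusted p = 0.00589). Its call at 6 days was lost without library 12 (-0.46, adjusted p = 0.0627, range over alternatives 0.000295 to 0.0627).

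**Figure D5:**
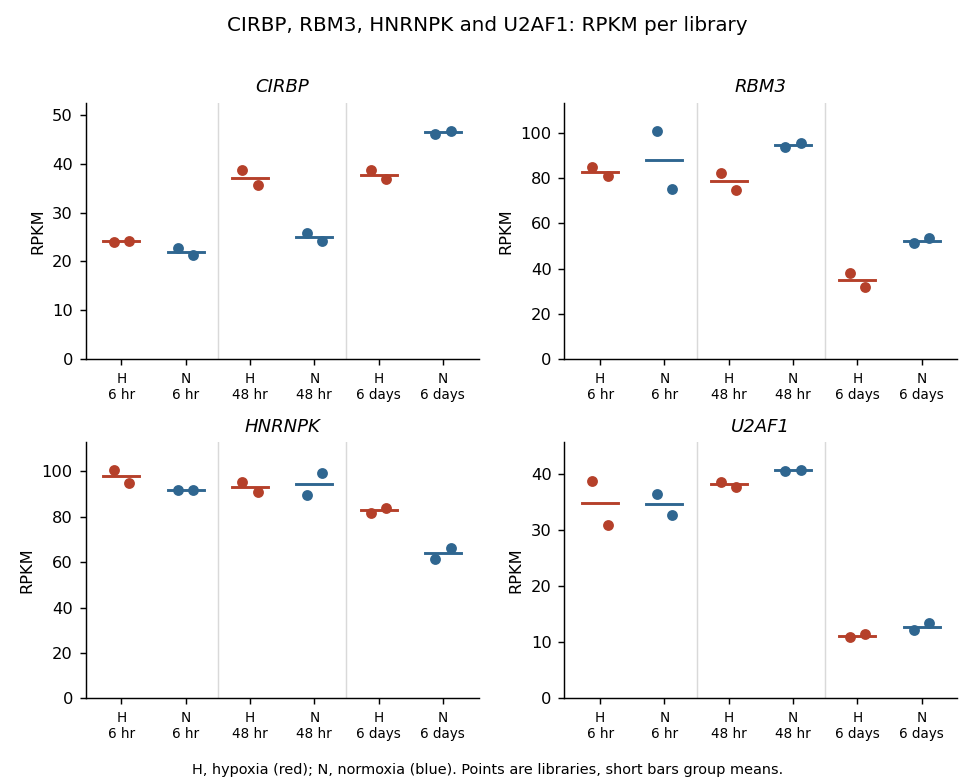
RPKM of CIRBP, RBM3, HNRNPK and U2AF1 in each of the 12 libraries (points) with group means (bars), hypoxia in red beside normoxia in blue. CIRBP lies higher in hypoxia at 48 hr (38.7 and 35.6 against 25.7 and 24.1 RPKM) and lower at 6 days (38.7 and 36.8 against 46.1 and 46.8), and all 4 U2AF1 values at 6 days lie below the 8 earlier ones.

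The hypoxia effect itself was compared between times in the same fit. Between 6 hr and 48 hr it changed for 0 of the 39 genes in limma, beside 0.511% higher and 0.0168% lower of all genes, with 1 higher and 1 lower at an unadjusted p below 0.05. Between 48 hr and 6 days it changed for 8, 3 toward higher and 5 toward lower in hypoxia, beside 5.38% and 5.31% of all genes. The change was 0.80 ± 0.16 for CLK1 (adjusted p = 0.0138), 0.70 ± 0.16 for CLK3 (adjusted p = 0.0214) and 0.66 ± 0.13 for CLK4 (adjusted p = 0.0133), so 3 of the 4 CLK kinases had a larger effect at 6 days, and that of CLK2 was not called (-0.19, 95% interval -0.51 to 0.14). It was -0.82 ± 0.17 for SRSF7 (adjusted p = 0.0144), -0.66 ± 0.16 for SRSF3 (adjusted p = 0.024), -0.57 ± 0.13 for SRSF2 (adjusted p = 0.0214) and -0.59 ± 0.17 for TRA2B (adjusted p = 0.04996), besides that of CIRBP. The call of TRA2B was lost with 0.1 or 1 RPKM added in place of 0.5, with no filter on low values and without the intensity trend. SRSF1 (adjusted p = 0.128), SRSF6, SRSF10 and TRA2A, though lower at 6 days, were not shown to differ from 48 hr. Without library 12, 7 of the 8 changes were not called, CIRBP being the exception (adjusted p from 0.0531 for CLK4 to 0.16 for TRA2B). Without library 7 or 8 the same 7 were not called either, and in these 3 fits their values lay between 0.63 and 0.81 for the CLK kinases and between -0.84 and -0.52 for the other 4. These comparisons and the hypoxia comparisons at each time share libraries, and so does the next.

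Most of the 39 also differed between normoxia at 6 days and normoxia at 6 hr. Time in culture and any other difference between these 2 groups cannot be told apart. At 6 days against 6 hr in normoxia, 6 were called higher and 27 lower, beside 30.9% and 25.9% of all genes tested, and the median log2 fold change was -0.60 against 0.04 over all genes. The fall took in 9 of 10 SR proteins, both TRA2 proteins, both SRRM coactivators and 9 of 12 hnRNPs. SRSF2 fell furthest, by 1.58 on the log2 scale (2.99-fold, adjusted p = 3.63e-07), then U2AF1 by 1.40 (2.64-fold, adjusted p = 2.32e-06), HNRNPM by 1.28 (2.43-fold), SRSF3 by 1.07 and SRRM1 by 1.02. CIRBP rose most, by 1.06 (2.09-fold, adjusted p = 2.7e-06), with SRPK2 at 0.54, CLK2 and HNRNPH3 at 0.39, CLK1 at 0.32 and CLK4 at 0.30 also called higher. SRSF5, CLK3, HNRNPA1, HNRNPC, PTBP2 and SF3B1 were not called. At 48 hr against 6 hr in normoxia, 0 of the 39 were called in limma, beside 0.00838% higher and 0.0838% lower of all genes. That count held under every alternative except the fit without library 1, which left 1 library in the 6 hr normoxia group. With all libraries in the fit, 12 were higher and 0 lower at an unadjusted p below 0.05 in limma. The share of all genes at that level was not counted. The median log2 fold change of the 39 was 0.16, against 0.08 over all genes. It was -0.0003 after quantile normalization and 0.08 after centring on a trimmed mean. The normoxia libraries at 6 days enter both the comparison with normoxia at 6 hr and the hypoxia comparison at 6 days. The values of both are therefore only set side by side. SRSF7 was 0.94 lower on the log2 scale in hypoxia than in normoxia at 6 days, and normoxia at 6 days was 0.87 lower than at 6 hr. CLK3 was 1.52 higher in hypoxia than in normoxia at 6 days, and normoxia at 6 days differed from 6 hr by -0.20 (95% interval -0.44 to 0.05). Of these 33 calls over time, 10 were lost under at least 1 of the 20 alternatives. SRRM2 kept its call in 8 of them, SRSF11 and CLK1 in 15, CLK4, HNRNPH3 and HNRNPR in 16, SRPK2 and HNRNPF in 18, and CLK2 and HNRNPL in 19. The 6 hr normoxia pair was wide: without library 2, CLK1 stood at 0.14 (adjusted p = 0.25) and SRRM2 at -0.28 (adjusted p = 0.401), and without library 1, SRPK2 stood at 0.28, HNRNPH3 at 0.19, HNRNPR at -0.16, SRSF11 at -0.13 and HNRNPF at -0.33, none of them called. Library 9 or 10 mattered as well: CLK1, HNRNPH3, HNRNPR, SRSF11 and SRRM2 were not called without either one, CLK4 and HNRNPF without library 9, and CLK2 and SRPK2 without library 10. With only the groups compared in the fit, CLK1, CLK4, HNRNPH3, HNRNPL, HNRNPR and SRSF11 were not called (adjusted p from 0.0603 for HNRNPL to 0.131 for SRSF11). CLK4 (0.18, adjusted p = 0.0904), SRSF11 and SRRM2 lost their calls after quantile normalization, and CLK4 also without library 2 (0.22). CLK1 and SRRM2 lost theirs with no filter on low values (adjusted p = 0.062 and 0.116), and SRRM2 also without the intensity trend and without any 1 of libraries 3 to 8.

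Other genes of the splicing machinery were called in both directions at 6 days in hypoxia, where 23.9% of all genes tested were higher and 18.3% lower. Of 62 core snRNP proteins tested, 6 were called higher and 6 lower (median log2 fold change -0.03), a smaller share in each direction than of all genes, which was not tested. Among them LSM2 fell by 0.71 on the log2 scale (11.5 RPKM in hypoxia, 19.1 in normoxia) and SNRNP35 and SNRPD1 fell by 0.70 and 0.36, while LSM3, SNRPB2 and SLU7 rose by 0.61, 0.53 and 0.40. Of 24 other hnRNPs and relatives, 4 were higher and 5 lower (median -0.09), among them TAF15 and HNRNPAB lower by 0.70 and 0.60 and HNRNPUL2 higher by 0.62. Of 22 other SR-related proteins and kinases, 2 were higher and 4 lower (median -0.01): DYRK1B, a kinase related to the CLK family, rose 1.91-fold (3.04 RPKM in hypoxia, 1.35 in normoxia) and SCAF1 1.70-fold, and BCLAF1, LUC7L and THRAP3 fell by 0.66, 0.54 and 0.54. Of 25 other regulators of alternative splicing, 2 were higher (QKI and RBFOX2, by 0.39 and 0.30) and 5 lower, among them MBNL1, TIA1 and RBM42 by 0.59, 0.45 and 0.43. Of 14 factors of nonsense-mediated decay, which degrades poison-exon transcripts, 5 were higher and 2 lower (median 0.16), with EIF4A3, RBM8A and SMG1 higher by 0.53, 0.46 and 0.34 and MAGOHB and MAGOH lower by 0.47 and 0.33. In normoxia at 6 days against 6 hr the core snRNP list gave 8 higher and 38 lower calls, and the decay list 0 higher and 7 lower, beside 30.9% and 25.9% of all genes.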

How the data were processed

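Values are RPKM per gene symbol, made by the authors and deposited as 1 column per library; a second deposited table of RPKM per precursor miRNA served only for depth. Per the labels' protocols, 3 ug of RNA was depleted with Ribominus, and libraries from the SOLiD Total RNA-Seq kit were read for 75 bases forward on a 5500xl. The submitters' processing notes name Partek 6.6 and hg19, with no role. The sources used here do not give the aligner, transcript models, strand setting, filters or RPKM denominator.

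Depth was inferred because precursor values times hairpin length fall on steps of 1 read (94.22 to 98.684% of values up to 20 reads within 0.05 of a whole number). RPKM is relative to each library's total, so a shift in a few abundant transcripts moves all others.

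Genes with at least 1 RPKM in at least 2 libraries were fitted with limma 3.58.1 (R 4.3.3) on log2(RPKM + 0.5), 6 group means, empirical Bayes with intensity trend, 6 residual degrees of freedom, two-sided, Benjamini-Hochberg over 11933 genes in each of 8 comparisons. The pseudocount shrinks changes of low genes. The fit was tested on simulated data. Alternatives were 8 other settings and 12 fits that each left out 1 library. The members and lists were chosen with earlier results of these data known. Values per library are given for members called in hypoxia with an absolute log2 change of at least 0.5, the 3 highest and 3 lowest by mean, and CIRBP, RBM3, SRSF1, SF3B1, U2AF1 and CLK1. Values per library of SRSF6, SRSF9, SRSF10, TRA2A, SRPK1, SRRM2, HNRNPD, HNRNPM, HNRNPK and U2AF2 were added after their values were seen. Also named are up to 3 genes per direction of each other list at 6 days, with at least 2 RPKM in the higher group; 1 gene that this rule names is not reported here. Symbols were matched to RefSeq (GRCh38.p14) for promoters and for overlapping genes, which 14 of the 39 have. Tables were handled with Python 3.11.15, pandas 2.3.3, and figures drawn with matplotlib 3.10.9.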

Additional observations from a re-analysis of the deposited data

Results flagged for a closer look

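For 8 genes the hypoxia effect at 6 days differed from that at 48 hr by a test of the difference itself (limma, adjusted p below 0.05 over all genes). The change on the log2 scale was 0.7965 for CLK1, 0.6964 for CLK3 and 0.6621 for CLK4, all toward higher in hypoxia. It was -0.8625 for CIRBP, -0.8178 for SRSF7, -0.6617 for SRSF3, -0.5912 for TRA2B and -0.5691 for SRSF2, all toward lower in hypoxia. The TRA2B call was lost in limma with pseudocounts of 0.1 and 1 RPKM (adjusted p = 0.0523 and 0.0502). No filter on low values and no intensity trend ended it too (adjusted p = 0.0796 and 0.0582). CIRBP was called higher at 48 hr and lower at 6 days, the only one of the 8 called in both directions. The precision is that of 2 libraries a group, too few to look for a single library that stands apart.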

How the results depend on the processing

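No called member changed sign under any of the 8 settings or the 12 fits without 1 library. Of 19 calls at 6 days, 9 held under all 20 alternatives (SRSF1, SRSF2, SRSF3, SRSF7, SRSF10, TRA2B, CLK1, CLK3 and CLK4), as did 2 of 3 at 48 hr (CLK3 and CIRBP), 0 of 2 at 6 hr, 1 of 8 changes between 48 hr and 6 days (CIRBP), 23 of 33 in normoxia at 6 days against 6 hr, and 11 of 15 over the mean of the 3 times, under 19 alternatives. Centring on a trimmed mean gave 6 calls at 48 hr in place of 3, the 3 added ones (SRSF1, SRSF10 and SRPK1) all lower. Over all genes, calls at 48 hr went from 1448 to 1961 with that centring. The cause was not tested. Leaving out 1 library at a time, calls ran from 0 to 4 at 6 hr, 2 to 5 at 48 hr, 10 to 20 at 6 days, 12 to 20 over the mean of the 3 times, 1 to 9 for the change between 48 hr and 6 days, 0 to 9 in normoxia at 48 hr against 6 hr and 26 to 33 at 6 days against 6 hr; the lone library of that group is then assumed to vary like the other groups. No paired analysis was possible because hypoxia and normoxia libraries carry different numbers, and a shared number only marks the 2 tables made from one library. With 2 libraries a group and depth known only by inference, small differences could not be detected, and a call missed is no sign of a level unchanged.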
